A study of Homo sapiens with 16 samples.

Results

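The genes described here encode the subunits of integrins and laminins in SH-SY5Y cells, a human neuroblastoma line that extends neurites when differentiated. They were taken by name from a table of RNA-seq read counts: the protein-coding genes whose symbols denote an integrin alpha subunit, an integrin beta subunit from ITGB1 to ITGB8, or a laminin alpha, beta or gamma chain. The rule gave 38 genes of 69222 gene rows, namely 18 integrin alpha, 8 integrin beta and 12 laminin genes. Of these, 28 had enough counts to be tested, 19 integrin and 9 laminin genes.

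Integrins are membrane receptors made of 1 alpha and 1 beta subunit that tie the cytoskeleton to the extracellular matrix. The alpha subunit largely decides the ligand: the products of ITGA3, ITGA6 and ITGA7 bind laminins, others bind collagens or the RGD motif of fibronectin and vitronectin. Laminins are secreted trimers of an alpha, a beta and a gamma chain that build basement membranes, and neurons extend neurites readily on laminin. The films of this study were coated with poly-L-lysine and laminin, per the labels' protocols, while no coat is stated for the culture plates, so the laminin-binding integrins are given apart. A film and its coat cannot be told apart in these comparisons.

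The 16 libraries form 8 groups with 2 replicates per group. On each of 3 conductive films, a polymer and reduced graphene oxide composite (P(rGO)), PEDOT:PSS and indium tin oxide (ITO), cells were differentiated with electrical stimulation in 1 group and without it in another. Stimulation was a square wave of 0.1 V peak to peak at 1 Hz for 8 h per day over the final 4 days. The other groups were cells differentiated on culture plates and untreated cells on culture plates. Differentiation lowered serum to 5%, 2.5% and 1% on days 2, 3 and 5, added 10 µM retinoic acid from day 3 to day 6, and then gave 50 ng/mL of the neurotrophin BDNF for 4 days. Replicates are numbered in the labels, which leave unsaid if each was its own culture; p-values therefore reflect the variation among these libraries alone.

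Gene counts per library ran from 15600410 to 20851000. Of 8 adrenergic neuroblastoma markers 7 were measured in these cells, HAND2, GATA3 and DBH among them, and CHGA had 0 counts. Summed over each list, adrenergic markers had 2230 to 2950 library-scaled counts (CPM) on films, 3340 to 3390 on differentiated plates and 4620 to 4850 on untreated plates. Mesenchymal neuroblastoma markers (such as VIM and FN1) had 47.7 to 122 CPM on films, 45.1 to 51.2 on differentiated plates and 537 to 549 on untreated plates. Fibroblast markers had 164 to 309 CPM on films, 152 to 165 on differentiated plates and 372 to 567 on untreated plates. Most of the sum on differentiated plates was THY1 and PDGFRB, with means of 78.2 and 69.8 CPM. The collagen gene COL1A1 had a mean of 2 CPM there, 2.79 to 4.72 in film groups and 31.2 on untreated plates. Leukocyte markers summed to at most 0.261 CPM, with CD3E at 0 counts, and the Schwann cell marker SOX10 had 0 counts. The differentiated plate libraries differed from each other, replicate 1 with 8.58% and replicate 2 with 5.42% of counts in mitochondrially encoded genes. The part of these differences in the results below was not tested, and in bulk RNA fewer cells of a type and less RNA per cell cannot be told apart.

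Scaled to exon length, ITGB1 had the highest mean of the subunit genes over the 16 libraries, 109 CPM per kb of exon. On untreated plates it was close to LAMB1, with group means of 85 and 76.7 CPM per kb, and LAMB1 varied widely between those replicates. ITGB1 encodes the beta subunit shared by the laminin-binding, collagen-binding and several other integrins. The next genes were laminin chains, LAMB1 at 36.6, LAMC1 at 25.5, LAMB2 at 25 and LAMA5 at 20.4 CPM per kb. They were followed by the alpha subunits ITGA7 at 12.6, ITGA1 at 12, ITGAV at 7.31 and ITGA3 at 4.42 CPM per kb. Neighbours in that order often overlapped in their ranges of group means: LAMC1 ran from 17.1 to 30.8 and LAMB2 from 18.3 to 28.5 CPM per kb. The laminin-binding ITGA6 and ITGB4, which pair with each other in hemidesmosomes, were low at 0.319 and 0.283 CPM per kb.

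**Figure D1:**
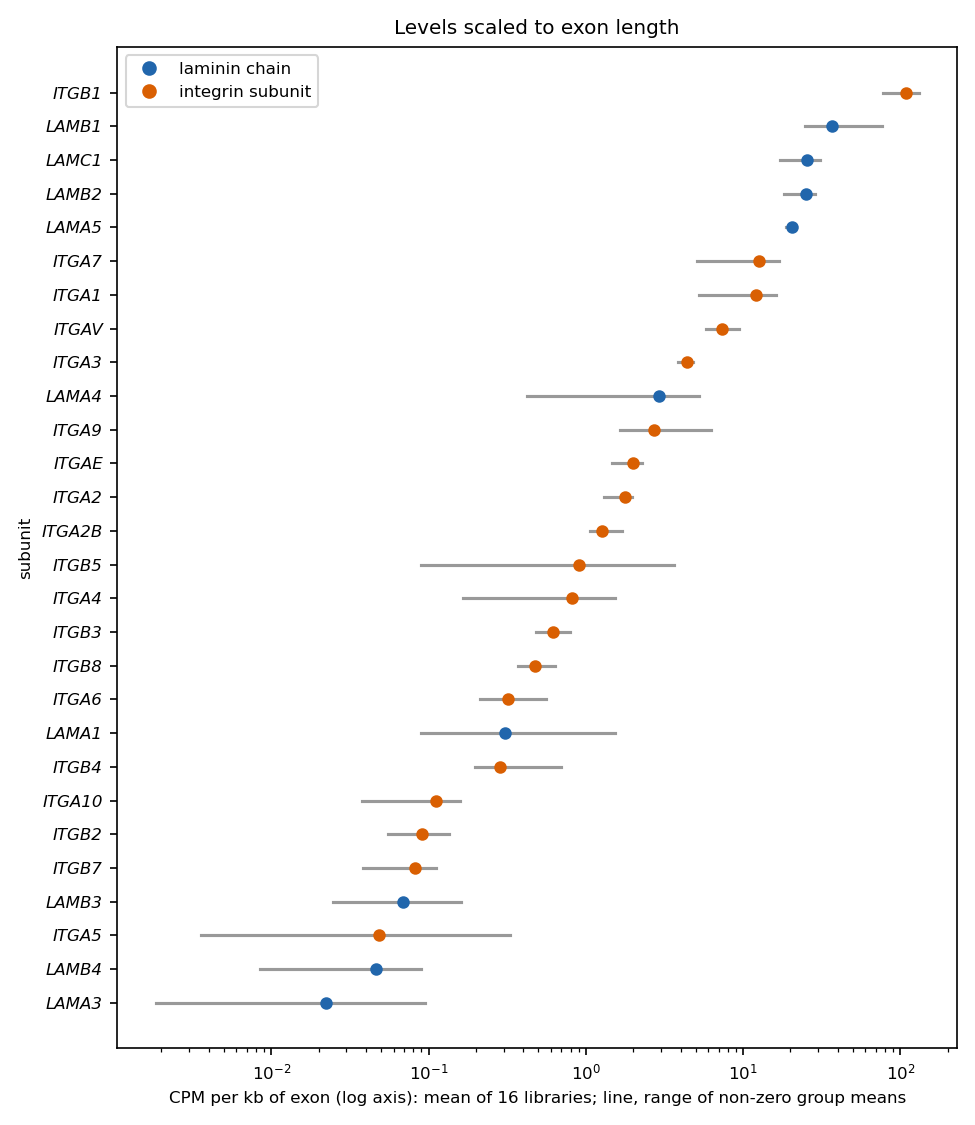
Levels of the 28 tested subunit genes in CPM per kb of exon on a log axis, as the mean of 16 libraries (point) and the range of non-zero group means (line). ITGB1 lies at the top with 109, ahead of 4 laminin chain genes between 36.6 and 20.4.

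Differentiated and untreated plates were compared first. Cells differentiated on plates had less RNA than untreated cells of several alpha subunits, of the gamma chain gene LAMC1 and of the embryonic laminin chain gene LAMA1, and more of the collagen receptor subunit ITGA1 and of the laminin chain gene LAMA4. Of 28 tested subunit genes 13 passed, 3 higher and 10 lower, which is 46.4%. Over all 18081 genes tested 29.6% passed, 13.8% higher and 15.8% lower. The median log2 fold change was -0.49 over the subunit genes and -0.01 over all genes. Tests are edgeR quasi-likelihood tests with Benjamini-Hochberg adjustment over all genes tested, and a gene passed at an adjusted p of at most 0.05.

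Among the laminin-binding integrins, ITGB1 had 428 and 501 CPM in differentiated plates, against 524 and 499 CPM in untreated plates. The groups overlapped, and the log2 fold change was -0.14 (SE 0.14, adjusted p = 0.47). ITGA7 (chr12:55684568-55716043, GRCh38) had 45.6 and 70 CPM in differentiated plates, against 21.7 and 43.1 CPM in untreated plates, without overlap but also without passing (0.84, SE 0.33, adjusted p = 0.072). It passed when untreated replicate 2 or differentiated plate replicate 1 was left out (1.42 and 1.11, adjusted p = 0.025 and 0.049). ITGA3 had 34.4 and 50.1 CPM in differentiated plates, against 39 and 36.4 CPM in untreated plates, which overlapped. ITGA6 had 2.01 and 1.5 CPM in differentiated plates, against 5.15 and 2.18 CPM in untreated plates (-1.06, SE 0.44, adjusted p = 0.083). These groups did not overlap, and ITGA6 passed without untreated replicate 2 (-1.55, adjusted p = 0.015) and with no filter on low counts (-1.05, adjusted p = 0.049), as did ITGA7 in the unfiltered fit (0.85, adjusted p = 6e-05). ITGB4 fell, with 0.977 and 1.7 CPM in differentiated plates, against 2.66 and 6.72 CPM in untreated plates (-1.80, SE 0.44, adjusted p = 0.0085). Its call was lost when untreated replicate 2 was omitted (-0.98, adjusted p = 0.098), or differentiated plate replicate 1 (-1.46, adjusted p = 0.061).

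Both alpha subunits of the group that binds VCAM1 and fibronectin splice segments fell. ITGA4 (chr2:181457202-181536187), which migrating neural crest cells express, had 1.47 and 1.15 CPM in differentiated plates, against 15.7 and 8.65 CPM in untreated plates. Its log2 fold change was -3.22 (SE 0.40, adjusted p = 0.00015), and the groups lay far apart. ITGA9 had 27.5 and 18.9 CPM in differentiated plates, against 59 and 43.8 CPM in untreated plates (-1.15, SE 0.22, adjusted p = 0.0022). ITGA9 shares 535 exon bases with an antisense gene. How reads in those bases were counted depends on the strand setting, which was not stated.

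Of 4 collagen-binding subunit genes 3 were tested, and 2 of them rose. ITGA1, which binds collagen and laminin with ITGB1, had 185 and 224 CPM in differentiated plates, against 94.4 and 101 CPM in untreated plates (1.06, SE 0.19, adjusted p = 0.0013). It shares 475 exon bases with PELO on the same strand, which had 9249 counts in all, against 65256 for ITGA1. ITGA10, a collagen receptor subunit of cartilage, had 0.814 and 0.699 CPM in differentiated plates, against 0.355 and 0.121 CPM in untreated plates (1.63, SE 0.56, adjusted p = 0.042). That call was lost in 3 of 4 fits with a library left out, with values between 1.08 and 2.58. It was also lost with no filter on low counts (1.64, adjusted p = 0.064) and in DESeq2 (1.65, adjusted p = 0.084). With only the groups compared it was lost too (1.63, adjusted p = 0.27). The third, ITGA2, had 14.7 and 9.84 CPM in differentiated plates, against 18.9 and 12.2 CPM in untreated plates, with overlap and no call.

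Of the RGD-binding group, ITGAV and ITGA5 fell, as did ITGB5, whose product pairs with that of ITGAV to bind vitronectin. ITGAV had 49.6 and 45.2 CPM in differentiated plates, against 83.9 and 70.1 CPM in untreated plates (-0.70, SE 0.14, adjusted p = 0.0026). ITGA5, the fibronectin receptor subunit, had 0.0543 and 0.0499 CPM in differentiated plates, against 2.6 and 2.42 CPM in untreated plates. That was 2 counts over both differentiated plate libraries, against 84 in untreated plates, a ratio of 43.4 of untreated to differentiated CPM with a 95% counting interval from 11.6 to 364. ITGB5 had 9.99 and 7.84 CPM in differentiated plates, against 36.4 and 10.8 CPM in untreated plates (-1.40, SE 0.50, adjusted p = 0.046). Most of that difference came from untreated replicate 1: without it the value was -0.27 (adjusted p = 0.62), and the call was lost in 3 of 4 fits with a library left out. ITGAE, whose product pairs with that of ITGB7 in lymphocytes, had 11.2 and 8.39 CPM in differentiated plates, against 16.2 and 14.4 CPM in untreated plates (-0.64, SE 0.18, adjusted p = 0.019). Its call was lost without differentiated plate replicate 2 (-0.45) and with no filter on low counts (-0.63, adjusted p = 0.082). ITGAE shares 427 exon bases with HASPIN on the other strand.

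The laminin genes shifted in their alpha chains. LAMA4 (chr6:112108760-112254939), a chain of vessel and nerve basement membranes, had 27.8 and 19.1 CPM in differentiated plates, against 6.63 and 3.15 CPM in untreated plates (2.26, SE 0.29, adjusted p = 0.00022). LAMA1, the chain of the earliest embryonic laminin, had 5.32 and 2.15 CPM in differentiated plates, against 24.3 and 24.6 CPM in untreated plates (-2.71, SE 0.45, adjusted p = 0.001). LAMA5, the most abundant alpha chain gene, had 226 and 347 CPM in differentiated plates, against 214 and 341 CPM in untreated plates, and the groups overlapped almost fully (0.05, SE 0.24, adjusted p = 0.90). LAMA5 shares 244 exon bases with ADRM1. The gene of the common gamma chain, LAMC1, had 123 and 165 CPM in differentiated plates, against 217 and 302 CPM in untreated plates (-0.85, SE 0.17, adjusted p = 0.003). LAMB1 had 384 and 304 CPM in differentiated plates, against 447 and 801 CPM in untreated plates (-0.86, SE 0.22, adjusted p = 0.01), a call lost on omitting untreated replicate 2 (-0.38, adjusted p = 0.093) or differentiated plate replicate 2 (-0.71, adjusted p = 0.11). LAMB2, the beta chain of synaptic and glomerular laminins, had 99.7 and 152 CPM in differentiated plates, against 109 and 188 CPM in untreated plates, which overlapped. The epidermal chain gene LAMA3 had 1.36 and 0.25 CPM in differentiated plates, against 2.01 and 0.787 CPM in untreated plates. LAMB3, its epidermal beta partner, had 0.163 and 0.0999 CPM in differentiated plates, against 0.355 and 0.363 CPM in untreated plates. LAMB4 had 0.109 and 0.15 CPM in differentiated plates, against 0.118 and 0 CPM in untreated plates. None of these 3 low genes passed. Beside these changes, 6 of 7 tested mesenchymal markers and 5 of 6 tested fibroblast markers were lower in differentiated plates. Of 7 tested adrenergic markers, 3 were lower and 1 was higher. The part of these markers was not tested.

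These 4 libraries carry little evidence of their own on spread. The untreated replicates also differed most, with a biological coefficient of variation over genes of 35.4%. It was 17.9% in differentiated plates and 6.86 to 17.9% in the film groups. The fit of all 16 libraries shares its estimate of spread per gene among the groups. Its p-values against untreated plates therefore rest partly on less variable groups. Fitted without the film libraries, 3 of the 28 genes passed, and over all genes 347 passed, against 13 and 5353 in the fit of all 16 libraries.

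**Figure D2:**
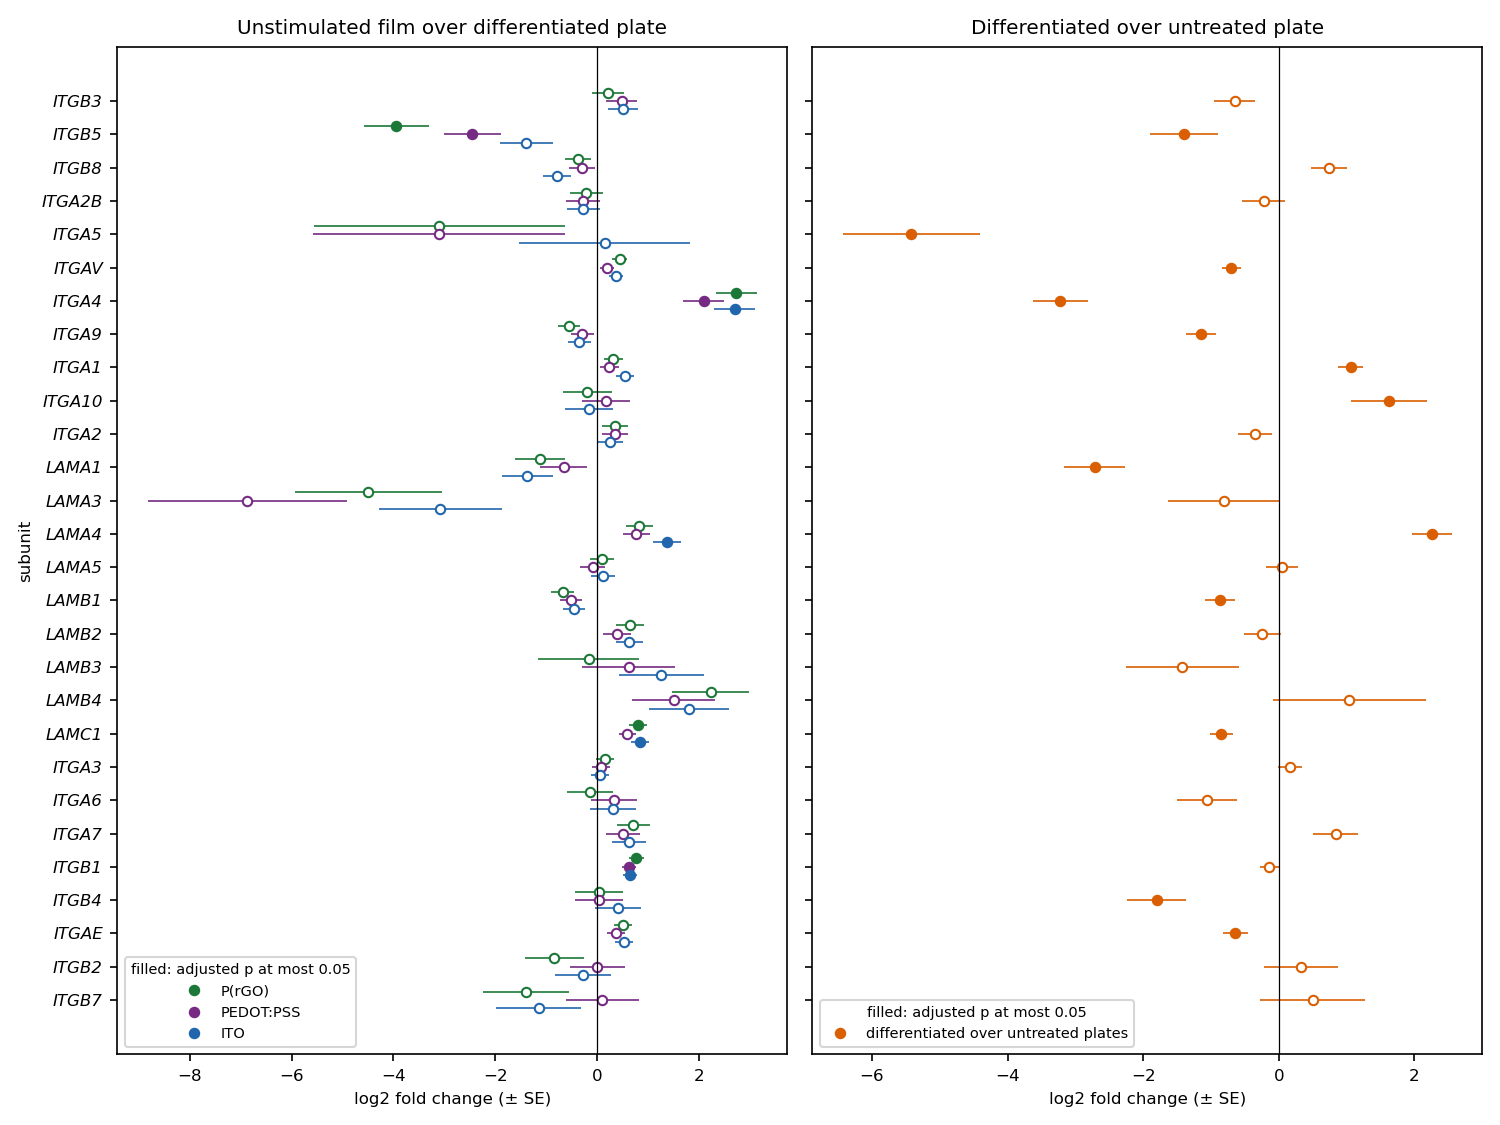
Log2 fold changes with standard errors for the 28 tested subunit genes, in unstimulated films over differentiated plates (left, 3 films) and differentiated over untreated plates (right). Filled points passed at an adjusted p of at most 0.05: ITGA4 and ITGB1 pass on all 3 films, and ITGA4 lies at -3.22 in the right panel.

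The next comparisons asked what the films changed in differentiated cells without stimulation. On all 3 films ITGB1 and ITGA4 rose against differentiated plates, and on P(rGO) and PEDOT:PSS ITGB5 fell. LAMC1 rose on P(rGO) and ITO, and LAMA4 rose on ITO. On P(rGO) 4 of the 28 tested subunit genes passed (14.3%), where 4.63% of all genes did, 2.99% higher and 1.64% lower. On PEDOT:PSS 3 passed (10.7%), where 1.48% of all genes did, 1.02% higher and 0.454% lower. On ITO 4 passed (14.3%), all higher, where 4.23% of all genes did, 2.5% higher and 1.73% lower. The median log2 fold changes of the subunit genes were 0.07, 0.18 and 0.28 on P(rGO), PEDOT:PSS and ITO, where the median over all genes was -0.02 in each. These comparisons share the 2 differentiated plate libraries, so their likeness is not independent.

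Of the laminin-binding integrins only ITGB1 passed on the films. It had 760 and 819 CPM on P(rGO), 700 and 741 on PEDOT:PSS and 774 and 683 on ITO, against 428 and 501 CPM on differentiated plates. Every film library, stimulated ones included, lay above both plate libraries, the lowest at 618 CPM. With an SE of 0.14 each, the log2 fold changes were 0.77, 0.63 and 0.65 for P(rGO), PEDOT:PSS and ITO, at adjusted p = 0.0067, 0.036 and 0.017. Without differentiated plate replicate 1 the call was lost on each film (0.66, 0.53 and 0.54, adjusted p = 0.095, 0.34 and 0.18). It was also lost on P(rGO) without film replicate 2, and on PEDOT:PSS and ITO without either film library. With only the groups compared, it was lost on PEDOT:PSS and ITO (0.63 and 0.65, adjusted p = 0.094 and 0.092), but not on P(rGO).

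The 3 laminin-binding alpha subunits did not pass on any film in the fit with the filter on low counts. ITGA7 had 106 and 83.1 CPM on P(rGO), 82.8 and 81.6 on PEDOT:PSS and 98.1 and 80 on ITO, against 45.6 and 70 CPM on differentiated plates. The film libraries lay above the plates without overlap, at log2 fold changes of 0.71, 0.51 and 0.62 (adjusted p = 0.25, 0.54 and 0.37). With no filter ITGA7 passed on P(rGO) and ITO (0.72 and 0.62, adjusted p = 0.0027 and 0.018). That fit called more of all genes too, 1625 on P(rGO) and 1430 on ITO, against 838 and 764 with the filter. ITGA3 had 40.4 to 52.2 CPM over the 12 film libraries (median 43.4), against 34.4 and 50.1 CPM on differentiated plates. ITGA6 had 1.28 to 2.87 CPM on films (median 1.67), against 2.01 and 1.5 CPM on differentiated plates. ITGB4 had 1.17 to 2.21 CPM on films (median 1.45), against 0.977 and 1.7 CPM on differentiated plates. All 3 overlapped with the plates. As a share of the summed CPM per kb of ITGA3, ITGA6 and ITGA7, ITGA7 made up 71.5 to 80.3% on films (median 73.7), 65.2 to 67.3% on differentiated plates and 41.7 to 62.6% on untreated plates, so each group lay apart from the next.

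ITGA4 had the largest rise that passed. It had 8.87 and 8.57 CPM on P(rGO), 6.38 and 4.76 on PEDOT:PSS and 8.88 and 8.1 on ITO, against 1.47 and 1.15 CPM on differentiated plates. These levels lay below the 15.7 CPM of untreated replicate 1, and replicate 1 on P(rGO) and on ITO lay just above the 8.65 CPM of untreated replicate 2. Its log2 fold changes, with an SE of 0.40 each, were 2.73, 2.09 and 2.70 in the same order, at adjusted p = 0.002, 0.018 and 0.0021. On P(rGO) and ITO the call held whichever library was left out (2.55 to 2.92), and on PEDOT:PSS it was lost in 4 of 4 such fits (1.86 to 2.28, adjusted p up to 0.18). ITGA9, of the same group, had 13.1 to 22.9 CPM on films (median 17.3), against 27.5 and 18.9 CPM on differentiated plates, and did not pass on any film.

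ITGB5 moved in the opposite direction. It had 0.973 and 0.174 CPM on P(rGO) and 1.34 and 1.89 on PEDOT:PSS, against 9.99 and 7.84 CPM on differentiated plates (-3.94, SE 0.64, adjusted p = 0.0039 and -2.45, SE 0.56, adjusted p = 0.048). On ITO it had 2.37 and 4.43 CPM and did not pass (-1.39, adjusted p = 0.18), but did with no filter on low counts (-1.39, adjusted p = 0.00081) and without the untreated libraries (-1.36, adjusted p = 0.035). The call on P(rGO) was lost without film replicate 2 (-3.19, adjusted p = 0.056), and that on PEDOT:PSS in 4 of 4 fits with a library left out. ITGAV, whose product is the alpha partner, had 49.6 to 67.5 CPM on films (median 59.8), against 49.6 and 45.2 CPM on differentiated plates, and did not pass. Without the untreated libraries it passed on P(rGO) and ITO (0.45 and 0.40, adjusted p = 0.021 and 0.043), and in DESeq2 on P(rGO) (0.44, adjusted p = 0.038). ITGA1 had 191 to 348 CPM on films (median 245), against 185 and 224 CPM on differentiated plates. ITGAE had 12 to 15.4 CPM on films (median 13.6), against 11.2 and 8.39 CPM on differentiated plates. ITGA10 had 0.458 to 1.13 CPM on films (median 0.798), against 0.814 and 0.699 CPM on differentiated plates. None of these 3 passed on a single film in the fit of all 16 libraries with the filter.

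Among the laminin chains, LAMC1 had 243 and 257 CPM on P(rGO), 209 and 224 on PEDOT:PSS and 252 and 262 on ITO, against 123 and 165 CPM on differentiated plates. It passed on P(rGO) (0.80, SE 0.17, adjusted p = 0.018) and ITO (0.84, SE 0.17, adjusted p = 0.014), and had 0.59 (SE 0.17, adjusted p = 0.11) on PEDOT:PSS. Both calls were lost without differentiated plate replicate 1 (0.60 and 0.64, adjusted p = 0.23 and 0.19), and without either library of the film. LAMA4 had 45.3 and 37.7 CPM on P(rGO), 44.2 and 35.9 on PEDOT:PSS and 66.3 and 55.2 on ITO, against 27.8 and 19.1 CPM on differentiated plates. All unstimulated film libraries were higher than both plates, and ITO passed (1.37, SE 0.27, adjusted p = 0.01), a call lost without differentiated plate replicate 2 (1.15, adjusted p = 0.06) and without ITO replicate 1 (1.24, adjusted p = 0.085). On P(rGO) and PEDOT:PSS LAMA4 missed the threshold (0.83 and 0.77, adjusted p = 0.095 and 0.19), and passed with no filter (adjusted p = 0.0026 and 0.013) and without the untreated libraries (adjusted p = 0.012 and 0.029).

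In the fit of all 16 libraries with the filter, the remaining laminin genes did not pass on a single film. With no filter LAMB2 passed on P(rGO) and ITO (0.64 and 0.63, adjusted p = 0.0052 and 0.0073), and LAMB1 on P(rGO) (-0.67, adjusted p = 0.0017). That fit also called LAMA1 on P(rGO) and ITO (-1.12 and -1.37, adjusted p = 0.044 and 0.0073). On few counts, it called LAMA3 on P(rGO), PEDOT:PSS and ITO (-4.49, -6.87 and -3.08, adjusted p = 0.0013, 0.00019 and 0.019). DESeq2 called LAMA3 on PEDOT:PSS (-6.2, adjusted p = 0.038). Without the untreated libraries LAMB1 passed on P(rGO) and PEDOT:PSS (-0.66 and -0.49, adjusted p = 0.006 and 0.047). LAMB1 had 205 and 224 CPM on P(rGO), 241 and 242 on PEDOT:PSS and 245 and 256 on ITO, against 384 and 304 CPM on differentiated plates, and every film library lay below both. LAMB2 had 213 and 178 CPM on P(rGO), 171 and 160 on PEDOT:PSS and 197 and 193 on ITO, against 99.7 and 152 CPM on differentiated plates. The share of LAMB2 in the summed CPM per kb of the beta chain genes was 39.2 to 60% on films (median 47.8), 23.5 to 37.2% on differentiated plates and 21.8 to 22.4% on untreated plates. LAMA5 had 242 to 375 CPM on films (median 292), against 226 and 347 CPM on differentiated plates, with overlap. LAMA1 had 0.691 to 3 CPM on films (median 1.81), against 5.32 and 2.15 CPM on differentiated plates. LAMB3 had 0.115 to 0.845 CPM on films (median 0.266), against 0.163 and 0.0999 CPM on differentiated plates, and LAMB4 had 0.0939 to 0.687 CPM on films (median 0.398), against 0.109 and 0.15 CPM. Of the fibroblast markers, 1 rose on P(rGO), and PEDOT:PSS likewise had 1 that rose, while ITO had 3. Of the mesenchymal markers, 1 rose and 1 fell on P(rGO), and 3 rose and 1 fell on ITO. Adrenergic markers that fell numbered 1 on P(rGO) and 3 on ITO, and on PEDOT:PSS 0 of either list passed. The part of these markers in the values above was not tested.

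ITGB1 and LAMC1 both rose on P(rGO) and ITO against differentiated plates. Against untreated plates the film mean was 0.47 for ITGB1, which passed, and -0.25 for LAMC1, which did not. The 250 bases before the RefSeq start of each (GRCh38.p14) are given, with capitals for the GC box GGGCGG on either strand. Shared regulation of these genes was not tested. ITGB1 lies at chr10:32958231-32958480 on the minus strand, the first of 2 starts listed, and LAMC1 at chr1:183023170-183023419 on the plus strand.
ITGB1: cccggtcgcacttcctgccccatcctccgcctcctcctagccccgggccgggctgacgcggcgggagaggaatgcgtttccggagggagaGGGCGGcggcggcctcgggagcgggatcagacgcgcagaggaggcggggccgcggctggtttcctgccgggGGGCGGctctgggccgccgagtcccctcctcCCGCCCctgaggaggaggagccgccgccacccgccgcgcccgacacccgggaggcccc
LAMC1: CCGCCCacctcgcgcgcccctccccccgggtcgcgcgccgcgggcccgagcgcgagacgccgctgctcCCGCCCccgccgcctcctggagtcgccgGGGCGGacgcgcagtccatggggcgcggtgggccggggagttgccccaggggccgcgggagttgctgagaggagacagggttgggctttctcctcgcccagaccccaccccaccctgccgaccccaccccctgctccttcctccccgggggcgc
Each holds 3 GC boxes, a motif that occurs in 42.6% of 35116 windows of the same length. Neither held the AP-1 letters TGANTCA (6.57% of windows), the retinoic acid receptor half-site AGGTCA (12.1%) or the E-box CACGTG (6.34%) on either strand. Promoter windows were listed for 26 of the 38 genes.

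**Figure D3:**
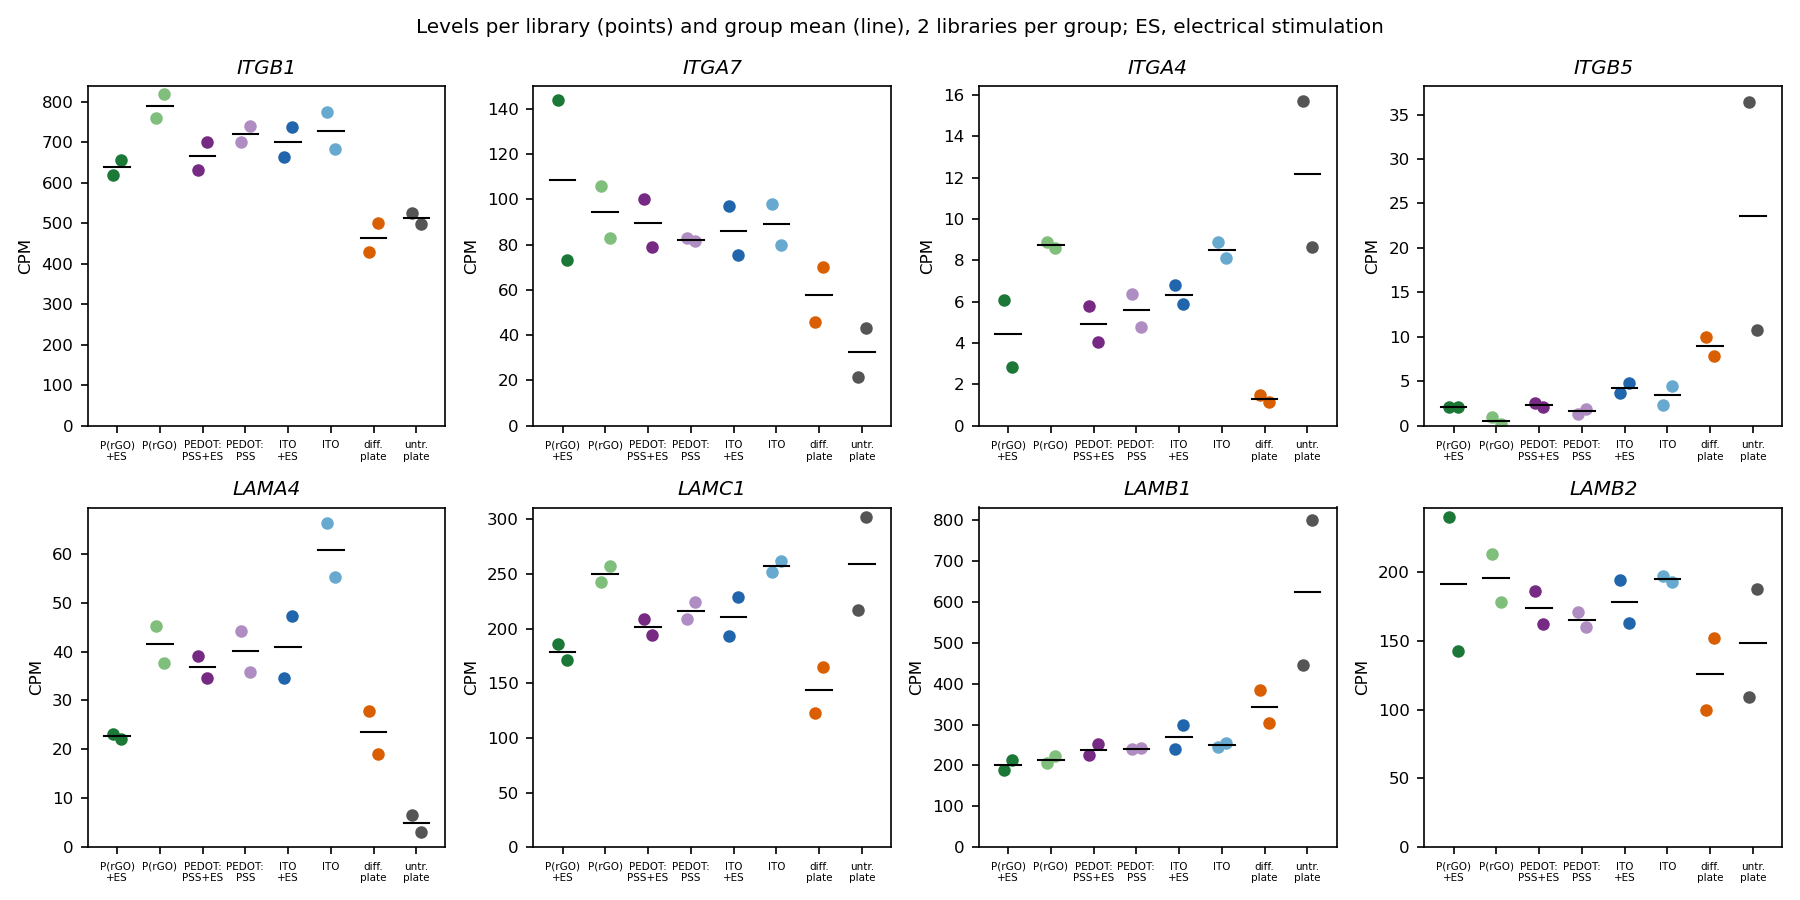
CPM of 8 subunit genes in each library (points) with group means (lines), from stimulated P(rGO) at the left to untreated plates at the right. ITGB1 lies at 618 to 819 CPM in the 12 film libraries, above the plates, and ITGA4 is lowest on differentiated plates at 1.47 and 1.15 CPM.

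Averaged over the 6 film groups, 6 of 28 subunit genes passed against differentiated plates (21.4%), where 7.78% of all genes did, 4.05% higher and 3.73% lower. The split was 3 higher and 3 lower, and 4 higher and 2 lower with relative log expression scaling, where LAMA4 passed (0.74, adjusted p = 0.045) and LAMB1 did not. ITGA4 (2.24, SE 0.34, adjusted p = 0.0015), ITGB1 (0.60, SE 0.11, adjusted p = 0.005) and LAMC1 (0.60, SE 0.14, adjusted p = 0.016) rose. ITGB5 (-2.14, SE 0.35, adjusted p = 0.0026), LAMA3 and LAMB1 (-0.55, SE 0.16, adjusted p = 0.047) fell. LAMA4 also passed with no filter, in DESeq2, with a replicate block, with only the groups compared and without the untreated libraries (0.73 to 0.75). In DESeq2, with only the groups compared and without the untreated libraries, ITGAE (0.49 to 0.50) and ITGAV (0.33 to 0.34) passed too. With no filter ITGA7 and LAMB2 passed (0.66 and 0.54, adjusted p = 0.00021 and 0.0019). LAMA1 passed with no filter and in DESeq2 (-1.05 in each, adjusted p = 0.001 and 0.04). LAMA3 rested on few reads: 15 counts in 12 film libraries, against 30 in 2 differentiated plate libraries, a ratio of 11.4 of plate to film CPM with a 95% counting interval from 5.93 to 22.7. LAMA3 lost its call without differentiated plate replicate 1 (-2.49, adjusted p = 0.52), LAMB1 lost it in 13 of 14 fits with a library left out, and ITGA4 kept it in every such fit. ITGB1, LAMC1 and ITGB5 lost it without differentiated plate replicate 1 only (0.49, 0.40 and -1.96; adjusted p = 0.15, 0.40 and 0.095).

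Set against untreated plates, the film groups together showed 16 of 28 subunit genes past the test (57.1%), 6 higher and 10 lower, where 47.9% of all genes passed, 21.9% higher and 26% lower. The share is close to that of all genes. Here too the spread was shared among groups, while the untreated replicates differed more than those of any film group. ITGA7 rose in this comparison (1.5, SE 0.28, adjusted p = 0.00071), with 73 to 144 CPM on films (median 82.9), against 21.7 and 43.1 CPM on untreated plates. ITGB1 rose by 0.47 (SE 0.11, adjusted p = 0.0031) and ITGA6 fell (-0.99, SE 0.31, adjusted p = 0.019). Omitting untreated replicate 1 ended the calls of ITGA6 (-0.24, adjusted p = 0.63), ITGA4 (-0.48, adjusted p = 0.18) and ITGAV (-0.25, adjusted p = 0.086). Omitting untreated replicate 2 ended those of ITGB4 (-0.78, adjusted p = 0.085), ITGA10 (1.11, adjusted p = 0.12) and LAMB4 (1.65, adjusted p = 0.16). LAMA4 rose by 2.99 (SE 0.27, adjusted p = 1.6e-06), and ITGA1 by 1.33 (SE 0.16, adjusted p = 1.5e-05). LAMB4 rose on a small number of reads, 88 in 12 film libraries and 2 in untreated plates. LAMA1 fell by 3.77 on the log2 scale (SE 0.27, adjusted p = 3.7e-07). LAMA4 made up 7.05 to 21.5% of the summed CPM per kb of laminin alpha chains on films (median 13.5), 6.33 to 12.9% on differentiated plates and 1.06 to 3.33% on untreated plates.

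**Figure D4:**
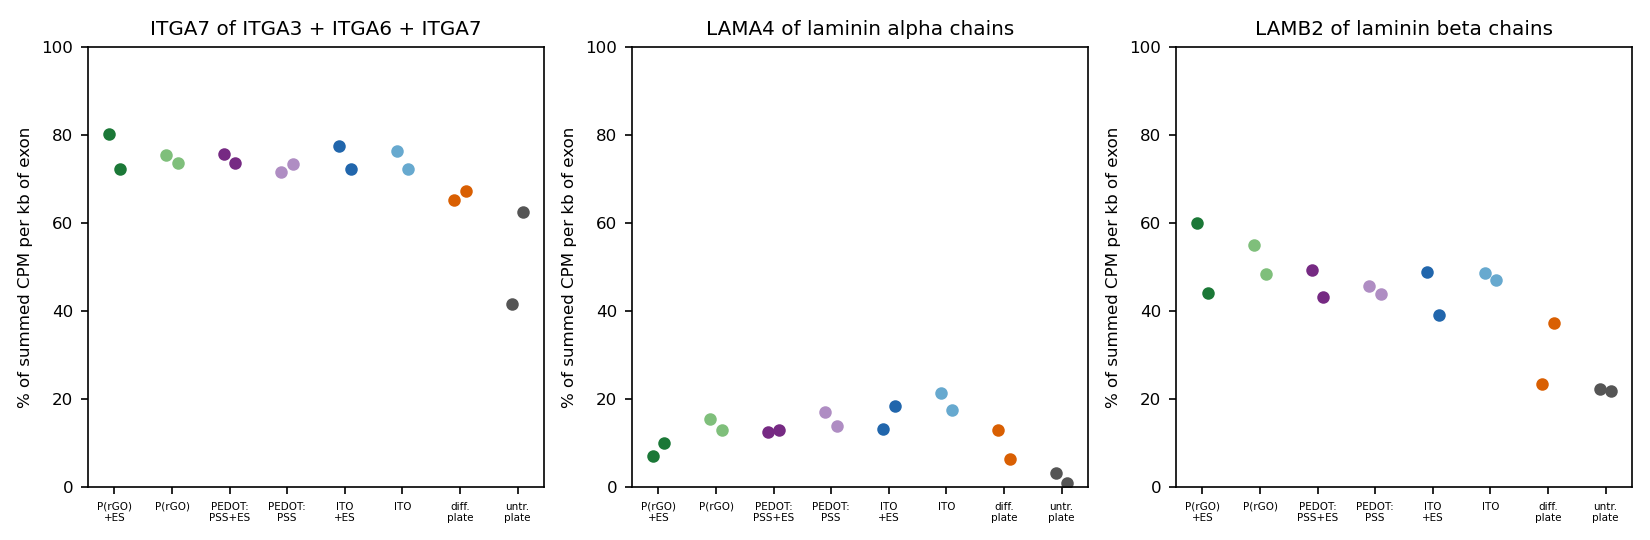
Share of 1 subunit gene in the summed CPM per kb of exon of its group, in each library. ITGA7 among laminin-binding alpha subunits reaches 71.5 to 80.3% on films, LAMA4 among laminin alpha chains 7.05 to 21.5%, and LAMB2 among beta chains 39.2 to 60%.

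The last question was what stimulation changed on a film. No subunit gene passed on P(rGO), PEDOT:PSS or ITO, and none passed for the mean effect over the films; edgeR called 0 of all genes (0%) in each. At an unadjusted p under 0.05 the numbers were 6 of 28 subunit genes on P(rGO) (986 of all genes), 0 on PEDOT:PSS (126), 1 on ITO (293) and 5 for the mean effect (1021). DESeq2 called 0 subunit genes in each, and 12, 0, 0 and 7 of all genes. The subunit values ran from -0.97 to 4.03 on P(rGO), where the highest belonged to ITGA5 with few counts, from -0.63 to 2.31 on PEDOT:PSS and from -0.85 to 1.57 on ITO.

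On P(rGO) and ITO and for the mean effect, LAMA4 had the smallest p-value of the subunit genes. It had 23.2 and 22.1 CPM on stimulated P(rGO), against 45.3 and 37.7 CPM on unstimulated P(rGO), and the stimulated libraries lay below the others (-0.88, SE 0.27, adjusted p = 0.73). On ITO it had 34.6 and 47.3 CPM with stimulation, against 66.3 and 55.2 CPM without (-0.57, SE 0.26, adjusted p = 1), and on PEDOT:PSS 39 and 34.6 CPM, against 44.2 and 35.9 CPM (-0.12, SE 0.26). ITGA4 had 6.06 and 2.82 CPM on stimulated P(rGO), against 8.87 and 8.57 CPM on unstimulated P(rGO) (-0.97, SE 0.35, adjusted p = 0.82). ITGB5 had 2.14 and 2.07 CPM on stimulated P(rGO), against 0.973 and 0.174 CPM on unstimulated P(rGO) (1.86, SE 0.68, adjusted p = 0.83). LAMC1 had 186 and 171 CPM on stimulated P(rGO), against 243 and 257 CPM on unstimulated P(rGO) (-0.49, SE 0.17, adjusted p = 0.79). With no filter on low counts LAMA4 and ITGB5 passed on P(rGO) (-0.89 and 1.85, adjusted p = 0.0073 and 0.0052) and for the mean effect (-0.52 and 0.90, adjusted p = 0.0058 and 0.012). In these comparisons the unfiltered fit also called other genes, where the fit with the filter called no gene.

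The 95% interval of the mean effect, from the t distribution with each gene's degrees of freedom and unadjusted for the number of genes, lay below 0 for LAMA4 (-0.85 to -0.20), ITGA4 (-0.96 to -0.09) and LAMC1 (-0.50 to -0.08). It lay above 0 for ITGB5 (0.15 to 1.65) and LAMB3 (0.21 to 2.12), and the adjusted p of these 5 ran from 0.75 to 0.83. Among the genes of highest level it ran from -0.33 to 0.01 for ITGB1, from -0.27 to 0.26 for LAMB1, from -0.36 to 0.30 for LAMB2, from -0.29 to 0.30 for LAMA5 and from -0.44 to 0.01 for ITGA1. For the laminin-binding alpha subunits it ran from -0.31 to 0.49 for ITGA7, from -0.26 to 0.17 for ITGA3 and from -0.75 to 0.39 for ITGA6. The effect of stimulation was also not called different between the films for any subunit gene, with 0 at an unadjusted p under 0.05, and 133 of all genes.

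**Figure D5:**
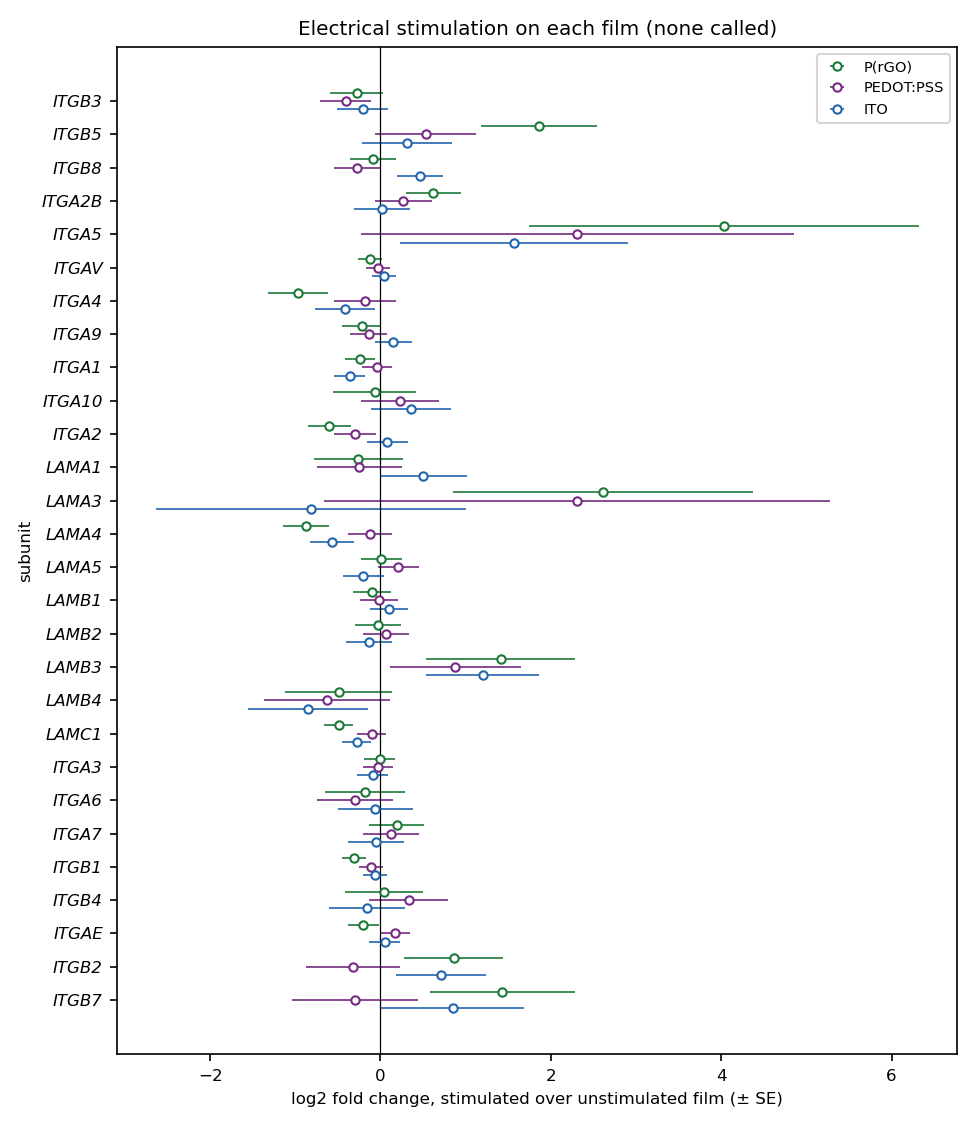
Log2 fold change of stimulated over unstimulated films with standard errors, for each tested subunit gene and film. None passed. ITGB5 on P(rGO) lies at 1.86 and LAMA4 at -0.88, and ITGA5 has wide errors on few counts.

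Between unstimulated films 0 subunit genes and 0 of all genes (0%) passed in edgeR, with 0, 1 and 1 subunit genes at an unadjusted p under 0.05 for PEDOT:PSS against P(rGO), ITO against P(rGO) and PEDOT:PSS against ITO (243, 299 and 283 of all genes). DESeq2 called 0 subunit genes, and 0, 0 and 2 of all genes. The smallest p-value belonged to ITGB5, which had 2.37 and 4.43 CPM on ITO, against 0.973 and 0.174 CPM on P(rGO) (2.55, SE 0.66, adjusted p = 1). With no filter on low counts it passed at a like value (2.54, adjusted p = 1.6e-06), in a fit that also called other genes in this comparison.

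Of 35 partner genes of these receptors and matrix proteins 32 were tested. In differentiated plates 1 rose and 12 fell against untreated plates, where 29.6% of all genes passed, the matrix linkers NID1 (-3.17, SE 0.32) and NID2 (-6.80, SE 0.72) and the basement membrane collagen gene COL4A1 (-2.79, SE 0.42) with the smallest p-values. On the films FERMT2, which encodes the integrin activator kindlin-2, rose each time (0.92, 0.72 and 0.70 on P(rGO), PEDOT:PSS and ITO; adjusted p = 0.0018, 0.013 and 0.0083). On P(rGO) NID1 rose (1.61, SE 0.31) and TLN2, for talin-2, fell (-0.95, SE 0.17), both as on ITO (1.67 and -0.80). In all, 2 partner genes rose and 1 fell on P(rGO), 1 rose on PEDOT:PSS, and 3 rose and 1 fell on ITO, where 4.63%, 1.48% and 4.23% of all genes passed. Stimulation gave 0 calls among partners.

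Of the tested subunit genes, 10 passed in no comparison in the fit of all 16 libraries with the filter: ITGA3, LAMA5, LAMB2 and LAMB3, described above, and ITGA2, ITGA2B, ITGB2, ITGB3, ITGB7 and ITGB8. ITGB8 passed for differentiation in DESeq2 (0.72, adjusted p = 0.039). ITGA2 ran from 9.84 to 18.9 CPM over the 16 libraries, ITGB8 from 5.3 to 9.74, ITGA2B from 4.23 to 11.2 and ITGB3 from 1.93 to 3.81 CPM. ITGB2 and ITGB7, beta subunits of leukocyte integrins, stayed at or below 1.03 and 0.638 CPM, and ITGB7 shares 1886 exon bases with the much more abundant ZNF740. Another 10 genes had too few counts to test, among them ITGA8, ITGA11, ITGAD, ITGAL, ITGAM, ITGAX, ITGB6, LAMA2 and LAMC3. The integrin subunit gene ITGA8 had 3 counts on films, 0 on differentiated plates and 32 on untreated plates. The collagen receptor subunit ITGA11 had 8 counts on films, 2 on differentiated plates and 36 on untreated plates. None of the others named exceeded 0.903 CPM, the highest value of ITGAL.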

How the data were processed

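Directional libraries were made from poly(A) RNA, per the labels' protocols. The authors deposited raw gene-level read counts in a single table. STAR and HTSeq, with no versions, and GRCh38.p13 (also hg38) are named in the submitters' processing notes. For strand, the HTSeq setting was not given in the sources used here. Of 69222 gene rows, 62686 carried a name and 32387 held no count; 5 summary rows were left out.

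Counts were analysed in R 4.3.3 with edgeR 4.0.16 (default low-count filter, TMM scaling, 1 mean per group, 8 residual degrees of freedom). The fit was also run on simulated counts, for P(rGO) against differentiated plates only. Those counts had equal spread in all groups, unlike these libraries, so that run does not bear on unequal spread. Standard errors are the log2 fold change over the root of F. CPM uses scaled library sizes, and exon lengths and positions come from GENCODE 29. Alternatives were other scaling, no filter, DESeq2 1.42.0, a replicate block, fewer groups and leaving out each library. The genes, lists and tests were chosen with earlier results of these data known. Values were printed for the laminin-binding integrins, the tested laminins and other subunit genes that passed on plates, films or stimulation, per library or, over the 12 film libraries, as lowest, median and highest. Intervals on counts cover counting error only. Values of some genes are not reported here.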

Additional observations from a re-analysis of the deposited data

How the results depend on the processing

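No value of a subunit gene that passed in the main fit or in an alternative run changed direction between them. Sign changes of values that passed in neither were not counted. Of 2128 values from other settings 2054 kept their side of the threshold, with 18 calls lost and 56 gained, and of 2240 values with a library left out 59 calls were lost and 8 gained. The numbers of subunit genes called against differentiated plates were larger without the filter on low counts, at 10 for P(rGO), 6 for PEDOT:PSS, 10 for ITO and 10 for the film mean (all genes 1625, 872, 1430 and 2176), where the stimulation effects had 2 on P(rGO) and 2 for the mean (LAMA4 and ITGB5 each; 168 and 137 of all genes), and ITO against P(rGO) had 1 (48 of all genes). Of all genes it called 3 for stimulation on PEDOT:PSS, 18 on ITO, 13 for the difference between films, 16 for PEDOT:PSS against P(rGO) and 48 for PEDOT:PSS against ITO. Without the untreated libraries they were 7, 6 and 7 on the 3 films (2209, 986 and 1756 of all genes). DESeq2 gave 10 for the film mean (1881 of all genes), and 6, 4 and 4 on P(rGO), PEDOT:PSS and ITO (1408, 621 and 1187 of all genes). With only the groups compared, 3 were called for differentiation, and 347 and 2848 of all genes for differentiation and the film mean, and 21 of all genes for PEDOT:PSS against P(rGO). Leaving out 1 library, which leaves 1 library in its group, changed the numbers called in each comparison with plates, mostly to fewer. The causes were not tested.

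The sample names carry 1 prefix for each replicate number, with no meaning given in the labels. The numbers were not taken to pair the libraries. Of 28 pairs of groups, 16 had a correlation of deviations above 0.1, over a range from -0.19 to 0.29. Every negative value involved a plate group, and pairs of film groups ran from 0.07 to 0.29. Stimulated and unstimulated P(rGO), PEDOT:PSS and ITO had 0.28, 0.14 and 0.19. A deviation shared by film libraries of the same replicate number was not tested beyond the block below. With a replicate block the numbers called were 13 for differentiation (5492 of all genes), 4, 2 and 5 for P(rGO), PEDOT:PSS and ITO (938, 339 and 849), 8 for the film mean (1541) and 16 for films against untreated plates (8787), and 0 for stimulation. ITGB5 missed the threshold under the block in differentiation (-1.35, adjusted p = 0.058) and on PEDOT:PSS (-2.42, adjusted p = 0.052). The block added ITGB8 in differentiation (0.74, adjusted p = 0.035), ITGA1 on ITO (0.54, adjusted p = 0.02), and ITGAE and LAMA4 for the film mean (0.48 and 0.75, adjusted p = 0.044 and 0.032). Precision was limited by 2 libraries per group: the median standard error over all genes was 0.25 to 0.26 for a comparison of 2 groups.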
